A study of Mus musculus with 20 samples.

Results

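The response of mouse macrophages to the liver X receptor (LXR) agonist GW3965 was measured in cells that also received DSHN, by setting 5 libraries of cells given both compounds against 5 libraries of cells given DSHN alone. These 10 of the 20 libraries of the series were taken by their labels. The comparison and the gene lists were chosen with earlier results of these data known. All cells were macrophages grown from the bone marrow of female C57BL/6 mice with a recombinant factor that the labels write as M-DSF, with no genetic change stated. Cells of the DSHN group were kept for 24 h with DSHN at 50 µM, and cells of the combination group for 24 h with DSHN at 50 µM and GW3965 at 1 µM, so that both groups carry DSHN and differ by GW3965. The labels state 5 biological replicates per treatment and do not say whether these came from separate mice or separate wells, so the errors given here are those between these cultures. The other 10 libraries, DMSO (the solvent) and GW3965 at 1 µM alone for 24 h, enter only where the response with DSHN is set against the response without it. The series describes DSHN as an agonist of NR0B2 and NR0B2 as an inhibitor of LXR, and so the comparison asks how far an LXR agonist still acts on cells kept with DSHN.

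LXR alpha and LXR beta are nuclear receptors that bind oxysterols and sit on DNA as a pair with a retinoid X receptor (RXR). Agonists turn on genes for the export of cholesterol from the macrophage, for the lipoproteins that carry it away and for the synthesis of unsaturated fatty acids, the last in part through the transcription factor SREBP-1c, a product of Srebf1. In macrophages LXR agonists are also known to dampen inflammatory genes. The LXR and RXR pair recognises repeats of a short hexamer spaced by a few bases.

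The promoters of Abca1, Srebf1, Fasn and Acsl3 are printed here because these 4 genes rose in the combination and carry the same form of such a repeat. The form searched, on both strands, was the letters GGTTA followed by any 5 bases and then GGTCA. It was chosen after the promoter windows had been looked at, from the known elements of Abca1 and Srebf1, so its presence in those genes is no finding. Each stretch is given 5′ to 3′ on the strand of the gene, from RefSeq promoter windows of the build GRCm38.p6 that run from 250 bases before to 50 bases after the annotated start. Capitals mark the match, which lies on the opposite strand of the gene in all 4 and therefore reads as its reverse complement. It begins 67 bases before the start of Abca1 (chr4:53159923-53159987, minus strand), 182 bases before that of Srebf1 (chr11:60210614-60210678, minus strand), 225 bases before that of Fasn (chr11:120824733-120824797, minus strand) and 112 bases before that of Acsl3 (chr1:78657688-78657752, plus strand).
Abca1: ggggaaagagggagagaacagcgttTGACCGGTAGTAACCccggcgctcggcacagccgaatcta
Srebf1: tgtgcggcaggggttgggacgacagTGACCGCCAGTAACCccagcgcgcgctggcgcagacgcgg
Fasn: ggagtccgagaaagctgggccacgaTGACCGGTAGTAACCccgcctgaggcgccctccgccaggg
Acsl3: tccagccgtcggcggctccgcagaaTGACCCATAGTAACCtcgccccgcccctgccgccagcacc
Among all 32851 windows 16 (0.0487%) held the form, and among tested genes 7 did. Of those 7, 6 were called higher in the combination with and without the length correction described next, beside 16.5% of all tested genes. That count holds Abca1 and Srebf1, which gave the form, and so is fixed in part by the choice. The 6 hold also Prrg4 (log2 fold change 0.24, and 0.43 corrected) and Tmco4 (0.31 and 0.49), while Haao was not called (0.40, adjusted p = 0.348). These other carriers were named after their values were seen. A match of letters is a description of the window and not a binding site. Of the 21 genes on the list of LXR targets used below, 14 had a window. Abcg1, Scd1, Scd2, Lpl and Npc1 were among those without one and were not searched.

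Library totals in the 10 libraries ran from 16855029 to 23796561 counts, and levels are given as CPM, counts scaled to the library total with TMM factors. A trend with gene length separated the 2 groups and bears on every result. The slope of log2 CPM on log2 summed exon length, taken against each gene's mean over 20 libraries, was −0.113 ± 0.0134 (SD, n = 5) in the combination, with libraries from −0.124 to −0.0943, and 0.0341 ± 0.0241 in DSHN, with libraries from 0.00566 to 0.0630. The difference of −0.147 had a two-sided exact permutation p of 0.00794, the smallest that 5 against 5 can give. Mitochondrial rRNA and tRNA also took different parts of the counts, at 0.232% ± 0.0197 against 0.129% ± 0.0134 (SD, n = 5, exact permutation p = 0.00794, adjusted p = 0.0317 over 4 library measures). Among 10 groups of genes by exon length, the median log2 changes of the shortest and the longest were 0.36 and −0.27 for the combination over DSHN and 0.09 and 0.00 for GW3965 over DMSO, and the mitochondrial part was 0.129% to 0.147% with GW3965 and 0.114% to 0.136% with DMSO. The source of both differences was not tested. Every change below is therefore given from the counts as deposited and again after a correction that removes from each library a smooth trend of expression with log2 exon length ("corrected"). All 14 macrophage markers were tested, with Adgre1, Csf1r, Itgam and Lyz2 abundant in both groups, and their summed level was 19332 to 20649 CPM in DSHN and 17738 to 19429 CPM in the combination.

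**Figure D1:**
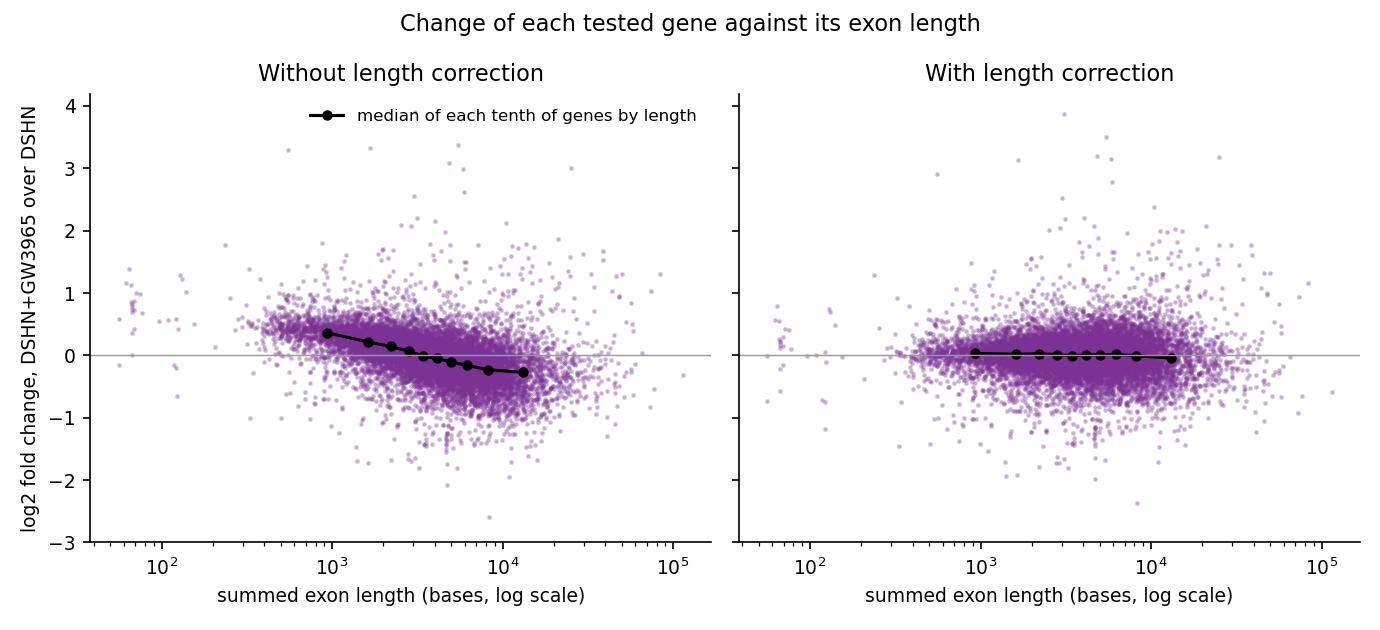
Each point is 1 of 13307 tested genes, placed by its summed exon length in bases (log scale) and its log2 fold change, DSHN with GW3965 over DSHN, without (left) and with (right) the length correction, and the black line joins the medians of 10 equal groups of genes by length. The medians ran from 0.36 for the shortest group to −0.27 for the longest without the correction and from 0.03 to −0.04 with it.

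Adding GW3965 to DSHN moved a large share of the transcriptome. Of 13307 genes tested, edgeR's quasi-likelihood test called 7732 at an adjusted p under 0.05 (58.1%). Of these, 3805 were higher (28.6%) and 3927 lower (29.5%). Genes called higher had a median exon length of 2153 bases and those called lower 6090 bases, against 3758 bases for all tested genes. With the correction 6179 genes were called (46.4%), 3131 higher (23.5%) and 3048 lower (22.9%), at median lengths of 4252 and 4786 bases. Called with the same sign in both analyses were 4805 genes (36.1%), 2196 higher (16.5%) and 2609 lower (19.6%), and 129 genes (0.969%) were called with opposite signs. The median log2 fold change of all tested genes was 0.01 in either analysis. Changes over 2-fold in both analyses were found in 101 genes that rose and 100 that fell. The counts of list members below are read against these shares.

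The genes of the receptors themselves moved little. Nr1h3, which encodes LXR alpha, had 11.9, 13.4, 12.6, 12.3 and 10.1 CPM in the DSHN libraries and 13.4, 16.02, 16.5, 15.7 and 15.4 CPM in the combination. The groups met at 13.4 CPM, and the log2 fold change was 0.35 ± 0.07 (SE, adjusted p = 0.000246), or 0.23 corrected (adjusted p = 0.00819). The LXR beta gene Nr1h2 stood at 57.1 CPM ± 3.39 with DSHN and 53.5 CPM ± 2.06 with both (SD, n = 5) and was not called (log2 fold change −0.09, adjusted p = 0.0572, corrected −0.07). Nr0b2, the gene of the receptor named as the target of DSHN, had 0 to 3 counts per library with DSHN and 2 to 7 counts with both, too few for the gene test. Its CPM by library totals was 0.0788 ± 0.0556 against 0.208 ± 0.119 (two-sided exact permutation p = 0.0397, adjusted p = 0.0794 over 4 library measures), which does not pass after adjustment.

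Among genes of the proteins that work with LXR more were lower than higher. Of 18 tested genes for LXR, RXR and their coactivators and corepressors, 2 were higher and 11 lower, with a median log2 fold change of −0.31. The correction left 3 higher and 9 lower at a median of −0.12, beside 0.01 over all tested genes. These are long transcripts, with a median exon length of 8186 bases. Ncor1, a corepressor that LXR without ligand recruits, had 197, 205, 215, 241 and 237 CPM in the DSHN libraries and 142, 133, 131, 144 and 150.01 CPM with both. No library of one group reached the other, and Ncor1 fell by 0.64 ± 0.05 on the log2 scale (SE, adjusted p = 1.82e-10), or by 0.39 corrected. Ep300, a histone acetyltransferase that serves as a coactivator, fell by 0.71 (0.46 corrected). Other coactivator genes, Ncoa1, Ncoa2, Ncoa3 and Ncoa6, were also lower in both analyses, at corrected log2 changes of −0.36, −0.16, −0.18 and −0.31. Of the RXR genes, Rxra had −0.03 (adjusted p = 0.51) uncorrected and 0.12 corrected (adjusted p = 0.0055). Among 17 other nuclear receptors, Rara, a retinoic acid receptor gene, rose by 0.42 (0.51 corrected), while Nr2c2, an orphan receptor gene, fell by 1.12 (0.89 corrected) and the vitamin D receptor gene Vdr by 0.62 (0.55 corrected).

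LXR target genes rose together, and they did so with and without the correction. Of 21 genes on the list 19 were tested, 18 were higher and 1 lower, at a median log2 fold change of 1.11, and corrected 17 were higher and 1 lower at a median of 1.06. The share of all tested genes called higher was 28.6% and 23.5%. The CPM of the DSHN and combination libraries did not overlap for 17 of the 19, 16 higher and 1 lower, against 42.5% of all tested genes, and overlapped for Nr1h3 and Smpdl3a.

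Both sterol exporter genes rose. Abca1 (GeneID 11303, GRCm39 chromosome 4, 53030789 to 53159988) encodes the transporter that loads cholesterol onto apolipoprotein A-I, and its promoter stretch is printed above. It had 209, 236, 295, 346 and 345 CPM in the DSHN libraries and 1286, 1295, 1256, 1131 and 1252 CPM with both. DSHN replicates 4 and 5 were the highest of their group and stood far below the lowest combination library. The log2 fold change was 2.12 ± 0.12 (SE, adjusted p = 5.53e-13), or 2.38 corrected. Abcg1 (GeneID 11307, GRCm39 chromosome 17, 31276668 to 31336958), whose product passes cholesterol on to high-density lipoprotein, had 81.0, 88.0, 104, 108 and 102 CPM in the DSHN libraries and 807, 796, 799.8, 679 and 730.4 CPM with both. It rose 7.90-fold, or 2.98 ± 0.10 on the log2 scale (SE, adjusted p = 3.18e-18) and 3.14 corrected.

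Apoe, Pltp and Lpcat3, genes for the carrying and remodelling of lipid, also rose. Apoe, the main apolipoprotein made by macrophages, had 3418, 3608, 3773, 3688 and 3575 CPM in the DSHN libraries and 6018, 6173, 6088, 5255 and 5261 CPM with both. Combination replicates 4 and 5 were the lowest of that group and still above every DSHN library, and the log2 fold change was 0.67 ± 0.06 (SE, adjusted p = 2.58e-10), 0.58 corrected. Pltp, which encodes a phospholipid transfer protein of plasma lipoproteins, rose by 0.77 (0.60 corrected). Lpcat3, which puts polyunsaturated chains into phospholipids, rose from 39.7 CPM ± 1.56 to 85.3 CPM ± 3.02 (SD, n = 5), a log2 change of 1.11 (1.06 corrected). The short apolipoprotein genes beside Apoe were near the detection limit. Apoc1 had 0, 2, 1, 3 and 0 counts with DSHN and 14, 5, 15, 13 and 11 counts with both, and was called higher (log2 fold change 3.30 ± 0.60 SE, adjusted p = 3.9e-05, and 2.91 corrected, adjusted p = 0.000345). Apoc2 and Apoc4 did not pass the filter on low counts, with 0 to 3 against 6 to 13 counts and 0 against 0 to 1 counts.

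Mylip and Arl4c rose without overlap between the groups. Mylip (GeneID 218203) encodes the ubiquitin ligase IDOL, which limits the uptake of cholesterol. It had 43.9, 47.3, 50.9, 48.9 and 48.1 CPM in the DSHN libraries and 163, 163, 174, 154 and 169 CPM with both, a rise of 1.78 ± 0.06 on the log2 scale (SE, adjusted p = 6.8e-18) and 1.82 corrected. Arl4c, a small GTPase gene linked to cholesterol export, had 276, 280.0, 289, 266 and 261 CPM against 601, 594, 617, 579.9 and 578 CPM. Both groups were tight, and Arl4c rose by 1.11 ± 0.03 (SE, 1.16 corrected). Cd5l, a secreted scavenger protein of macrophages, rose from 273 CPM ± 14.8 to 545 CPM ± 26.0 (SD, n = 5; log2 change 1.00, 0.86 corrected), and Mertk, a receptor for apoptotic cells, rose by 0.48 (0.69 corrected).

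The endosomal cholesterol genes split. Npc1, whose membrane protein lets cholesterol leave the lysosome, had 271, 275, 296, 345 and 340.1 CPM in the DSHN libraries and 223, 219.5, 201, 188 and 190.3 CPM with both. It was the 1 LXR target on the list that fell, by 0.58 ± 0.07 on the log2 scale (SE, adjusted p = 2.66e-07), or by 0.43 corrected. DSHN replicates 4 and 5, the highest for Abca1, were also the highest for Npc1. Npc2, the soluble partner of Npc1, rose from 954 CPM ± 49.0 to 1181 CPM ± 36.4 (SD, n = 5; log2 change 0.31, 0.30 corrected). Smpdl3a, a phosphodiesterase gene, was called higher without the correction (0.11, adjusted p = 0.0049) and had −0.07 with it (adjusted p = 0.127), with overlapping libraries.

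**Figure D2:**
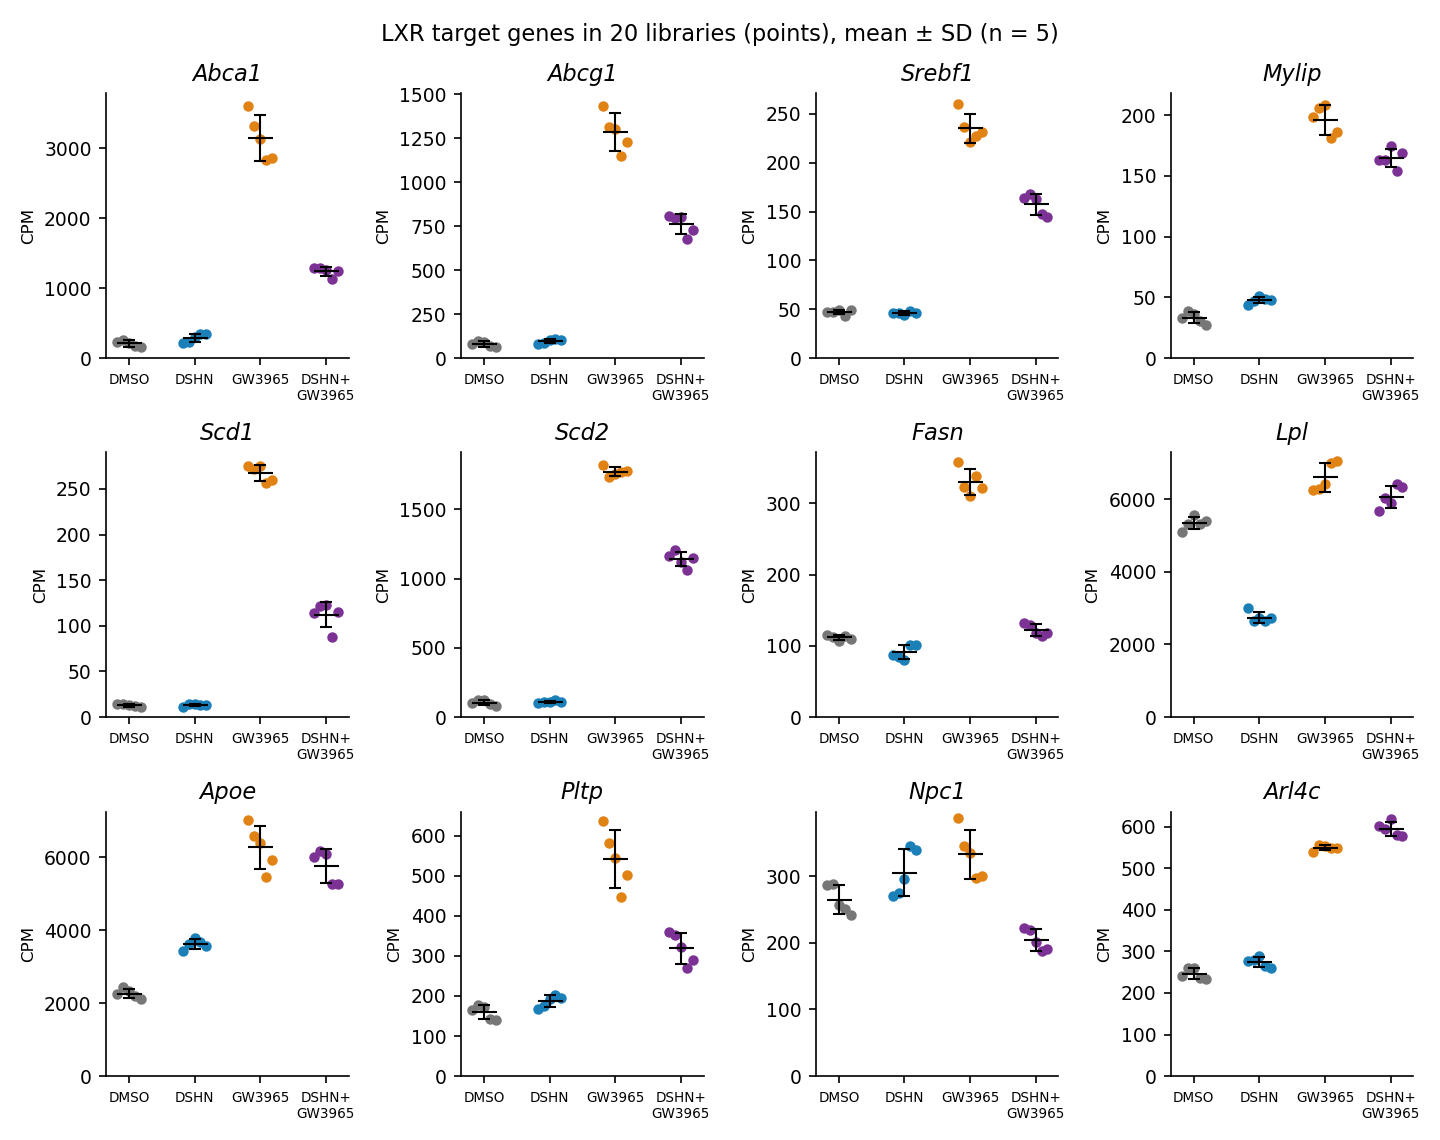
CPM of 12 LXR target genes in all 20 libraries, 1 point per library, with bars for the mean ± SD (n = 5) of DMSO, DSHN, GW3965 and DSHN with GW3965. Abca1, Abcg1, Srebf1, Scd1 and Scd2 stood higher with both compounds than with DSHN and lower than with GW3965 alone, Lpl was low with DSHN only, and Npc1 was lowest with both.

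Among genes of at least 5 CPM called in both analyses without overlap of libraries, the stearoyl-CoA desaturase genes Scd2 and Scd1 had the largest rises. Scd2 (GeneID 20250, GRCm39 chromosome 19, 44282115 to 44295303) had 103, 107, 108, 125 and 109.8 CPM in the DSHN libraries and 1162, 1204, 1121, 1062 and 1151 CPM with both. It rose 10.3-fold, or 3.37 ± 0.08 on the log2 scale (SE, adjusted p = 1.12e-21) and 3.51 corrected. Scd1 (GeneID 20249, GRCm39 chromosome 19, 44382889 to 44396148) had 11.2, 14.1, 13.9, 13.5 and 13.4 CPM in the DSHN libraries and 114, 122, 123, 88.1 and 115 CPM with both. Combination replicate 4 was low, and the log2 change was 3.09 ± 0.08 (SE, 3.20 corrected). Their products put the double bond into oleic acid. As close paralogs they can share reads, and how such reads were divided between them is not known here. Fads2, the desaturase of polyunsaturated fatty acids, rose 4.23-fold (log2 change 2.08, 2.04 corrected), from 18.9 CPM ± 0.986 to 79.9 CPM ± 7.58 (SD, n = 5).

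Srebf1 (GeneID 20787, GRCm39 chromosome 11, 60089910 to 60113407), the gene of the lipogenic transcription factor, had 45.7, 46.1, 44.2, 48.5 and 46.4 CPM in the DSHN libraries and 164, 168, 163, 148 and 145 CPM with both. Combination replicates 4 and 5 were the lowest of their group and far above every DSHN library, and the log2 change was 1.77 ± 0.05 (SE, adjusted p = 6.06e-20), 1.88 corrected. Fasn, the fatty acid synthase gene, had 87.0, 84.3, 80.3, 101 and 101 CPM with DSHN against 132, 129, 117, 114 and 118 CPM with both. That rise of 0.43 ± 0.06 (SE, 0.68 corrected) was small beside those of the desaturases. Acsl3, which activates long-chain fatty acids on lipid droplets, had 22.9, 21.2, 24.6, 22.1 and 19.8 CPM against 63.7, 67.7, 63.5, 62.0 and 62.4 CPM and rose by 1.53 (1.57 corrected). Over the whole list for fatty acid and glycerolipid synthesis, 15 of 27 tested members were higher and 3 lower at a median of 0.20, and corrected 16 were higher and none lower at a median of 0.27. Acaca, which makes malonyl-CoA, had 0.02 (adjusted p = 0.8) and 0.27 corrected, and Acly, the citrate lyase gene, was called lower by 0.23 without the correction only (−0.01 corrected). The elongase gene Elovl5 rose by 0.68 (0.66 corrected), and Lpin1, which makes diacylglycerol, had −0.19 and 0.03 corrected, neither called.

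Lpl (GeneID 16956), the lipoprotein lipase gene, had 2992, 2633, 2717, 2631 and 2714 CPM in the DSHN libraries and 5672, 6022, 5902, 6401 and 6323 CPM with both. It rose by 1.15 ± 0.04 (SE, adjusted p = 4.35e-17), or 1.20 corrected. The libraries without DSHN had 5091 to 5565 CPM with DMSO and 6238 to 7057 CPM with GW3965, and the combination lay above the former and overlapped the latter. Among 13 lipid droplet and cholesterol ester genes 3 were higher and 4 lower, and 2 and 3 with the correction. Plin2, the coat protein of lipid droplets, rose from 341 CPM ± 8.78 to 532 CPM ± 28.4 (SD, n = 5; log2 change 0.64, 0.60 corrected). Lipa, the lysosomal lipase that frees cholesterol from its esters, fell by 0.27 (0.30 corrected), and Lpcat2, which remodels phosphatidylcholine, by 0.37 (0.40 corrected).

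Cholesterol synthesis and uptake genes rose along the length of the pathway. Of 26 tested members 24 were higher and 1 lower at a median of 0.49, and with the correction again 24 were higher and 1 lower at a median of 0.52. Fdps, which makes farnesyl diphosphate, had 41.4, 40.4, 39.1, 37.7 and 36.1 CPM in the DSHN libraries and 80.6, 85.0, 87.3, 89.4 and 83.04 CPM with both, with no overlap (log2 change 1.12 ± 0.05 SE, adjusted p = 5.43e-16, corrected 0.90). Insig1, the sterol sensor that holds SREBP proteins back, rose from 63.9 CPM ± 3.22 to 119 CPM ± 4.67 (SD, n = 5; 0.90, corrected 0.83). Cyp51, the lanosterol demethylase gene, rose by 0.74 (0.82 corrected) and Hmgcs1, the gene of HMG-CoA synthase, by 0.59 (0.66 corrected). Srebf2, whose product drives this pathway, rose by 0.14 (0.28 corrected), and Scap, which escorts SREBP proteins to the Golgi, was the member that fell, by 0.39 (0.29 corrected).

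The proximal promoter of Hmgcs1 is printed because it holds the sterol regulatory element letters TCACNCCAC, which were searched on both strands in the same windows. The stretch lies at chr13:119690189-119690247 of GRCm38.p6 on the plus strand, and its capitals begin 137 bases before the annotated start.
Hmgcs1: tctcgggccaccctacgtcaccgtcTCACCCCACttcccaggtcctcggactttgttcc
That form was in 408 of all 32851 windows (1.24%) and in 1.44% of all genes with a window. Of the 27 genes on the cholesterol list 19 had a window, and 1 of those held the form. Fdps was among those without a window and was not searched. CCAAT, the letters of a box bound by the factor NF-Y, lay in the windows of 17 of the 19 (89.5%), against 41.1% of all genes with a window. The share was 64% for fatty acid and glycerolipid synthesis, 62.5% for DNA replication, 57.1% for LXR targets and 30.8% for cytosolic ribosomal proteins. Overlap between matches of different forms was not counted, and a window without a match says only that the letters are not there.

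Several genes outside lipid metabolism were among the 12 largest rises. Cd38, an NAD-consuming ectoenzyme of leukocytes, had 5.06, 5.84, 6.41, 6.10 and 5.84 CPM in the DSHN libraries and 28.8, 35.1, 35.6, 35.7 and 37.3 CPM with both. Combination replicate 1 stood below the other 4, and the rise was 2.56 ± 0.08 on the log2 scale (SE, adjusted p = 2.29e-18), 2.53 corrected. Il18bp, the secreted decoy of interleukin 18, had 7.09, 5.32, 6.64, 7.28 and 6.79 CPM against 26.8, 24.97, 27.0, 26.7 and 25.8 CPM (1.98, corrected 2.08). Stab2, a scavenger receptor of hyaluronan, rose from 2.72 to 7.89 CPM (1.54, corrected 1.79), and Cfap126, a ciliary protein gene, from 2.64 to 7.75 CPM (1.56, corrected 1.43). Outside the 12, Lbp, the lipopolysaccharide-binding protein gene, rose from 1.18 CPM ± 0.306 to 5.00 CPM ± 0.638 (SD, n = 5; 2.09, corrected 2.01).

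Inflammatory genes showed no common direction that held under the correction. Of 26 tested cytokine, chemokine and enzyme genes, Il18bp included, 10 were higher and 2 lower at a median of 0.20, but the correction left 6 higher and 3 lower at a median of −0.04. The transcripts on this list are short, with a median exon length of 1733 bases. Il1a, which encodes interleukin 1 alpha, rose from 1.05 CPM ± 0.191 to 3.38 CPM ± 0.416 (SD, n = 5; 1.69, corrected 1.54). Cxcl14, a chemokine gene, had 35.8, 32.3, 26.0, 30.2 and 29.0 CPM in the DSHN libraries and 39.6, 41.9, 42.0, 44.5 and 37.3 CPM with both (0.42, corrected 0.40). Ptgs2, the cyclooxygenase 2 gene, fell from 6.47 CPM ± 0.894 to 4.12 CPM ± 0.753 (SD, n = 5; −0.64, corrected −0.56). Tnf had −0.37 (adjusted p = 0.089) and −0.57 corrected (adjusted p = 0.014), and Ccl2 had −0.00 and −0.35, neither called. Of 25 immediate early genes, which signalling switches on within minutes, 8 were higher and 3 lower in each analysis, at medians of 0.08 and 0.00, with 1 lower in the uncorrected count without combination replicate 5. Zfp36, whose product destabilises cytokine mRNA, had 63.5, 60.8, 61.6, 55.9 and 55.7 CPM against 76.6, 79.5, 84.0, 92.3 and 82.2 CPM and rose by 0.48 (0.30 corrected), while Fos had −0.03 and −0.16 corrected, neither called. Atf3 rose by 0.51 (0.36 corrected) and Jund by 0.51 (0.47 corrected).

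Genes of NF-kB signalling and antigen display moved modestly. Among 19 NF-kB family members and feedback inhibitors 2 were higher and 8 lower, and corrected 0 were higher and 7 lower, with Nfkb1 at −0.40 (−0.31 corrected), Tnip1 at −0.43 (−0.44) and Irak3 at −0.31 (−0.32). Of 9 tested MHC class II genes 7 were higher at a median of 0.30 (4 without DSHN replicate 5 or combination replicate 3), but only H2-DMa remained called after the correction, at 0.41 (adjusted p = 4.79e-05, uncorrected 0.18, adjusted p = 0.0339). That uncorrected call for H2-DMa is lost without DSHN replicate 5 or without combination replicate 1, 2 or 3, at log2 changes of 0.15 to 0.17. In the MHC class I list Nlrc5, the activator of these genes, fell by 0.62 (0.40 corrected), while the proteasome subunit gene Psmb10 rose by 0.44 (0.19 corrected). Of 26 type I interferon response genes 1 was higher (4 without DSHN replicate 3) and 7 lower, and 1 and 4 corrected. Called in neither analysis were 16, and the shares of all tested genes lower were 29.5% and 22.9%, so the list showed no excess of falls. The RNA sensor genes Ifih1 (−0.74, corrected −0.59) and Ddx58 (−0.53, corrected −0.41) and the GTPase gene Ifi47 (−0.43, corrected −0.58) fell in both analyses. Lgals9, an immunoregulatory lectin gene, fell by 0.47 (0.68 corrected).

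Genes of apoptotic cell uptake and scavenger receptors moved both ways. Of 19 tested, 6 were higher and 7 lower in each analysis, at medians of −0.04 and 0.00, with Mertk among those that rose. Stab1, which clears modified lipoproteins and matrix fragments, had 1321, 1399, 1262, 1624 and 1626 CPM in the DSHN libraries and 850.4, 899, 826, 779 and 789 CPM with both. The groups were well apart, and Stab1 fell by 0.80 ± 0.07 (SE, adjusted p = 1.81e-10), or 0.57 corrected. Mrc1, the mannose receptor gene, fell from 1586 CPM ± 154 to 1016 CPM ± 63.6 (SD, n = 5; −0.64, corrected −0.51), and the macrophage markers Adgre1 and Csf1r had −0.51 and −0.49 (−0.51 and −0.45 corrected). Scarb1, the receptor for high-density lipoprotein, rose by 0.35 (0.42 corrected), and Folr2, a folate receptor gene, by 0.51 (0.26 corrected). Of 28 genes of lipid-laden macrophages and lysosomes 16 were higher and 6 lower, and 8 and 6 with the correction, so that most of the excess of rises on that list was present only without it. Lgals3, the galectin 3 gene, rose by 0.55 (0.31 corrected) and Fabp5, a fatty acid binding protein, by 0.73 (0.41 corrected).

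Cell cycle genes were mostly lower. Of 30 DNA replication genes 4 were higher (2 without DSHN replicate 3 or 4, 1 without combination replicate 4) and 16 lower at a median of −0.19, and corrected 2 were higher and 17 lower at −0.20. Of 26 mitosis genes 4 were higher and 17 lower at −0.26, and corrected 2 and 21 at −0.28. The share of all tested genes called lower was 29.5%, and 22.9% corrected. Ccne2, the cyclin E2 gene, had 14.7, 13.4, 12.8, 12.1 and 14.2 CPM in the DSHN libraries and 7.502, 8.15, 5.58, 7.72 and 7.31 CPM with both, and fell by 0.89 ± 0.11 (SE, adjusted p = 7.45e-08), 0.90 corrected. Pole, the catalytic subunit of DNA polymerase epsilon, fell by 0.98 (0.78 corrected), Top2a, a topoisomerase, by 0.53 (0.40 corrected) and Bub1b, a spindle checkpoint kinase, by 0.58 (0.55 corrected). Pcna, the polymerase clamp, was called higher without the correction only (0.31, corrected 0.05). In bulk RNA, fewer cycling cells and less of these transcripts per cell cannot be told apart.

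The 12 largest falls were led by Elk4, a partner of serum response factor, with 9.87, 9.89, 11.7, 13.2 and 13.6 CPM in DSHN and 4.64, 3.25, 2.85, 2.50 and 3.05 CPM in the combination. It fell by 1.81 ± 0.12 on the log2 scale (SE, adjusted p = 6.83e-12), or 1.68 corrected. Xylt1, which starts the sugar chains of proteoglycans, fell by 1.64 (1.66 corrected) and Tram2, a translocon-associated gene, by 1.47 (1.71 corrected). Others had long transcripts and smaller corrected falls, namely the deubiquitinase gene Usp9x (−1.46, corrected −1.20), the polycystin gene Pkd1 (−1.43, corrected −1.18), the aminopeptidase gene Lnpep (−1.44, corrected −1.24), the splicing helicase gene Snrnp200 (−1.41, corrected −1.21) and Ago2, an effector of RNA silencing (−1.40, corrected −1.18). Usp9x had 261, 269.9, 282, 357 and 370.5 CPM in the DSHN libraries and 128, 120.4, 101, 99.8 and 109 CPM with both, so DSHN replicates 4 and 5 were again the highest.

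Some genes of the extracellular matrix were among the falls. Col12a1, Svep1 and Hspg2 were named for the size of their falls and Fn1 from the list of alternative activation genes, and no list of matrix genes was counted. Col12a1, a fibril-associated collagen gene, had 210.4, 236, 246, 336 and 308 CPM in the DSHN libraries and 107, 89.2, 78.3, 64.3 and 95.02 CPM with both. It fell by 1.62 ± 0.13 (SE, adjusted p = 6.54e-11), or 1.36 corrected. Hspg2, the perlecan gene, fell by 1.46 (1.20 corrected), Svep1, a matrix adhesion gene, by 1.49 (1.23 corrected) and Fn1, the fibronectin gene, by 1.24 (1.01 corrected). Markers of stromal and endothelial cells were lower as well. Of 8 tested such markers 6 were lower and none higher, and 4 were lower with the correction, at medians of −0.42 and −0.22. Their summed level was 2437 to 3093 CPM in DSHN and 1911 to 2330 CPM in the combination, carried by Col1a1 and Col1a2, while Dcn, Lum and Tek were each under 0.4 CPM. The part of such cells in the falls of these 4 genes was not tested.

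**Figure D3:**
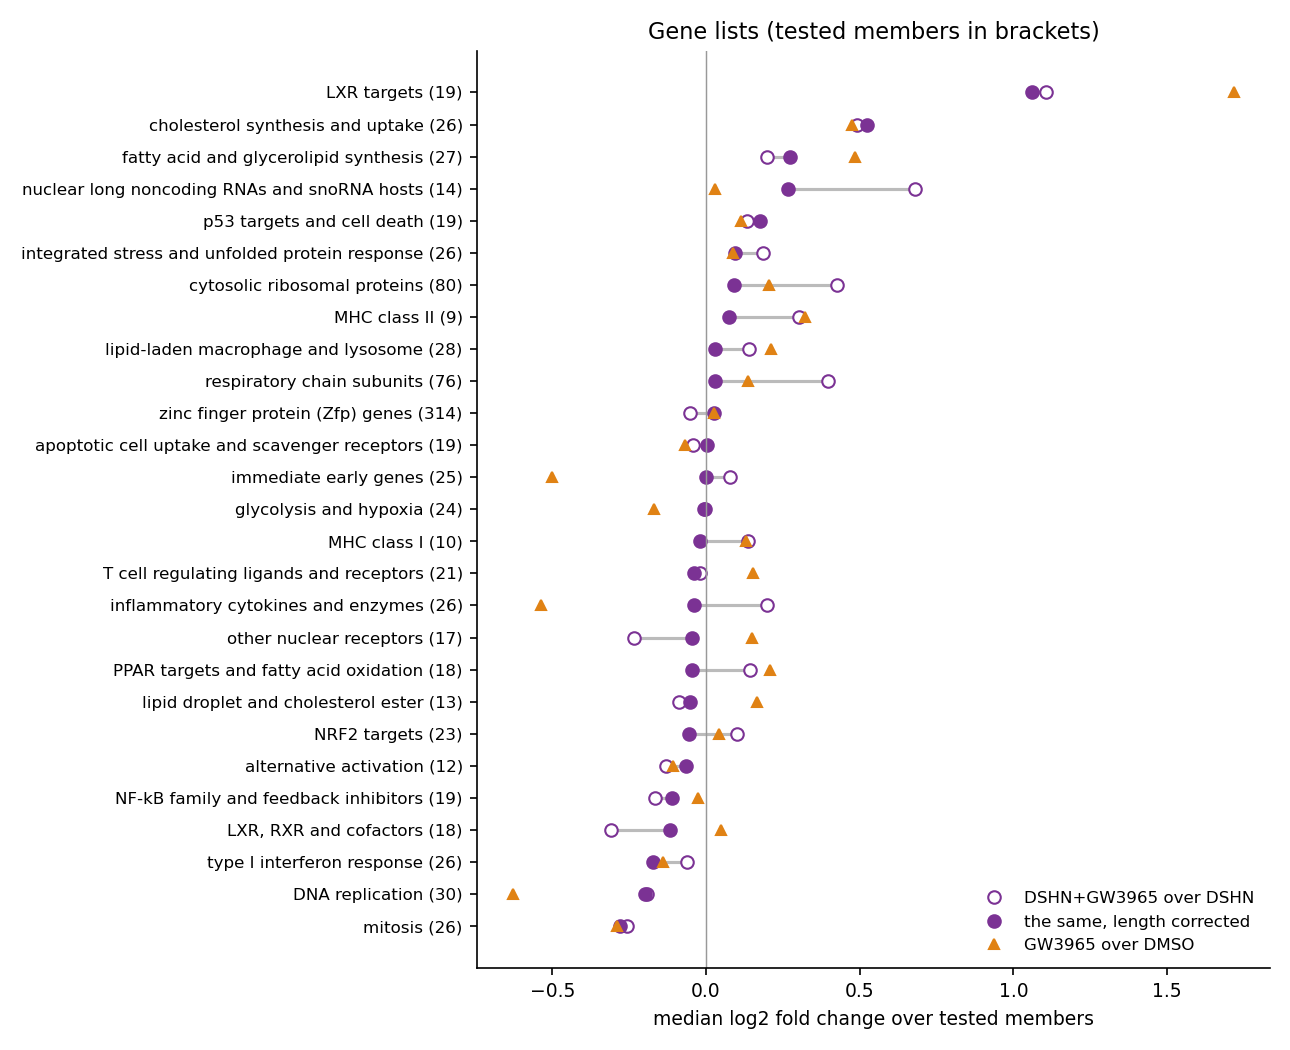
Median log2 fold change over the tested members of 27 gene lists, for DSHN with GW3965 over DSHN without (open circles) and with (filled circles) the length correction and for GW3965 over DMSO (triangles). LXR targets, cholesterol and fatty acid lists kept their medians under the correction, while ribosomal proteins went from 0.43 to 0.09, respiratory chain subunits from 0.40 to 0.03 and hosts of small nucleolar RNAs with nuclear noncoding RNAs from 0.68 to 0.27.

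Lists of short transcripts lost most of their rise under the correction. Of 80 cytosolic ribosomal protein genes 79 were higher at a median of 0.43, against 41 higher and 7 lower at 0.09 after it. Respiratory chain subunits went from 69 of 76 higher at 0.40 to 27 higher and 9 lower at 0.03. Atp5j2, a subunit gene of ATP synthase with 428 exon bases, had 97.1, 93.0, 94.5, 90.2 and 86.5 CPM in the DSHN libraries and 114, 119, 118, 118 and 115 CPM with both. Its libraries did not overlap, yet the sign turned from 0.34 to −0.10, and the ribosomal protein gene Rps18 (0.31 to −0.09) and the leukocyte antigen gene Cd52 (0.33 to −0.09) did the same. NRF2 targets, genes of the oxidant defence, went from 12 higher and 3 lower of 23 to 5 and 7. Of these targets 5 were called higher in both analyses, Tkt among them, and 3 lower, among them Slc7a11, the cystine transporter gene, at −1.02 (−0.78 corrected). The integrated stress and unfolded protein response kept more, 16 higher and 4 lower of 26 and then 11 and 4, with Atf4, its transcription factor, at 0.65 (0.47 corrected). Among p53 targets and cell death genes 10 of 19 were higher and 2 lower, and 9 and 3 with the correction. The survival gene Bcl2l1 rose from 75.5 CPM ± 7.51 to 119 CPM ± 8.47 (SD, n = 5; 0.66, corrected 0.86), Mcl1 by 0.27 (0.50 corrected) and the BH3-only gene Bbc3 by 0.66 (0.71 corrected).

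Neat1, a long nuclear RNA of 20773 exon bases that builds paraspeckles, went against the length trend. It had 102, 82.6, 89.1, 66.3 and 67.5 CPM in the DSHN libraries and 121, 109, 133, 187 and 175 CPM with both, and rose by 0.83 ± 0.17 (SE, adjusted p = 0.000145), or 1.04 corrected. Combination replicates 4 and 5, the highest for Neat1, were the lowest for Apoe and Srebf1. Of the 14 tested nuclear noncoding RNAs and hosts of small nucleolar RNAs 13 were higher, and 7 with the correction, among them Snhg4 (0.88, corrected 0.60) and Snhg6 (0.72, corrected 0.28).

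The response to GW3965 with DSHN was then set against the response without DSHN. GW3965 over DMSO called 6194 genes (46.5%, and 47.8% with the correction), 50.6% of them higher, or 36.2% with scaling to total counts in place of TMM. Of all tested genes 23.6% were called higher there and 23% lower, or 24.5% and 23.3% corrected. These libraries share none with the comparison above. Of the 2196 genes called higher with DSHN in both analyses 851 (38.8%) were also called higher without it. They make up 28.3% of the 3010 genes higher there, beside 16.5% of all tested genes called higher with DSHN in both analyses. Lower in both responses were 946 genes (36.3% of 2609 and 32.2% of 2939), beside 19.6% of all tested genes lower with DSHN. The correlation of the 2 sets of log2 changes across 13307 genes was 0.32, and 0.34 corrected, with genes not independent of each other. The test of the difference, the response with DSHN minus the response without it, called 6681 genes (50.2%), 3154 positive (23.7%) and 3527 negative (26.5%). Of the called differences 47.2% were positive, against 58.8% with scaling to total counts. With the same sign in both analyses 4712 were called (35.4%). Of 141 genes more than 2-fold higher with GW3965 alone, 72 were called higher with DSHN, and for 98 the difference was negative in both analyses. Those 141 genes had a median log2 change of 1.38 without DSHN and 0.61 with it (0.56 corrected). They were chosen for a large change without DSHN, a choice that by itself favours the larger value there.

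Most LXR targets rose less in the presence of DSHN. The difference was negative for 14 of 19 and positive for 2, with the correction as without it, at medians of −0.80 and −0.76. Abca1 rose by 3.92 without DSHN and by 2.12 with it, a difference of −1.80 ± 0.17 (SE, adjusted p = 8.73e-09, corrected −1.54). Abcg1 had a difference of −1.04 ± 0.13 (corrected −0.91), Cd5l of −1.31 (−1.45), Scd1 of −1.27 (−1.19), Fasn of −1.13 (−0.88) and Scd2 of −0.72 (−0.60). Srebf1 differed by −0.55 ± 0.07 (corrected −0.46), Mylip by −0.78 (−0.76) and Apoe by −0.80 (−0.89). Apoe, Cd5l, Mylip, Mertk, Smpdl3a, Npc2 and Arl4c started higher with DSHN than with DMSO, without overlap of libraries. Apoe stood at 3418 to 3773 against 2102 to 2449 CPM. Fasn and Lpl started lower with DSHN, Fasn at 80.3 to 101 against 107 to 116 CPM. With both compounds Apoe had 5255 to 6173 CPM, which overlapped GW3965 alone (5463 to 7007 CPM). Smpdl3a overlapped there too (469 to 502 and 446 to 487 CPM). Abca1, Abcg1, Cd5l, Scd1, Fasn, Scd2, Srebf1 and Mylip stood lower with both than with GW3965 alone, without overlap. Npc1 rose by 0.33 without DSHN and fell by 0.58 with it, a difference of −0.91 ± 0.11 (SE, adjusted p = 1.31e-07, corrected −0.78).

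For a few LXR targets the difference was not called or was positive. Arl4c rose by 1.16 without DSHN and by 1.11 with it, a difference of −0.04 ± 0.05 (SE, adjusted p = 0.49, corrected −0.01). Npc2 had a difference of −0.09 (adjusted p = 0.129). Lpl rose by 0.30 without DSHN and by 1.15 with it, a difference of 0.84 ± 0.06 (SE, adjusted p = 1.55e-10, corrected 0.88), from a lower level with DSHN than with DMSO. Nr1h3 differed by 0.36 ± 0.10 (SE, adjusted p = 0.00588, corrected 0.24, adjusted p = 0.0496).

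**Figure D4:**
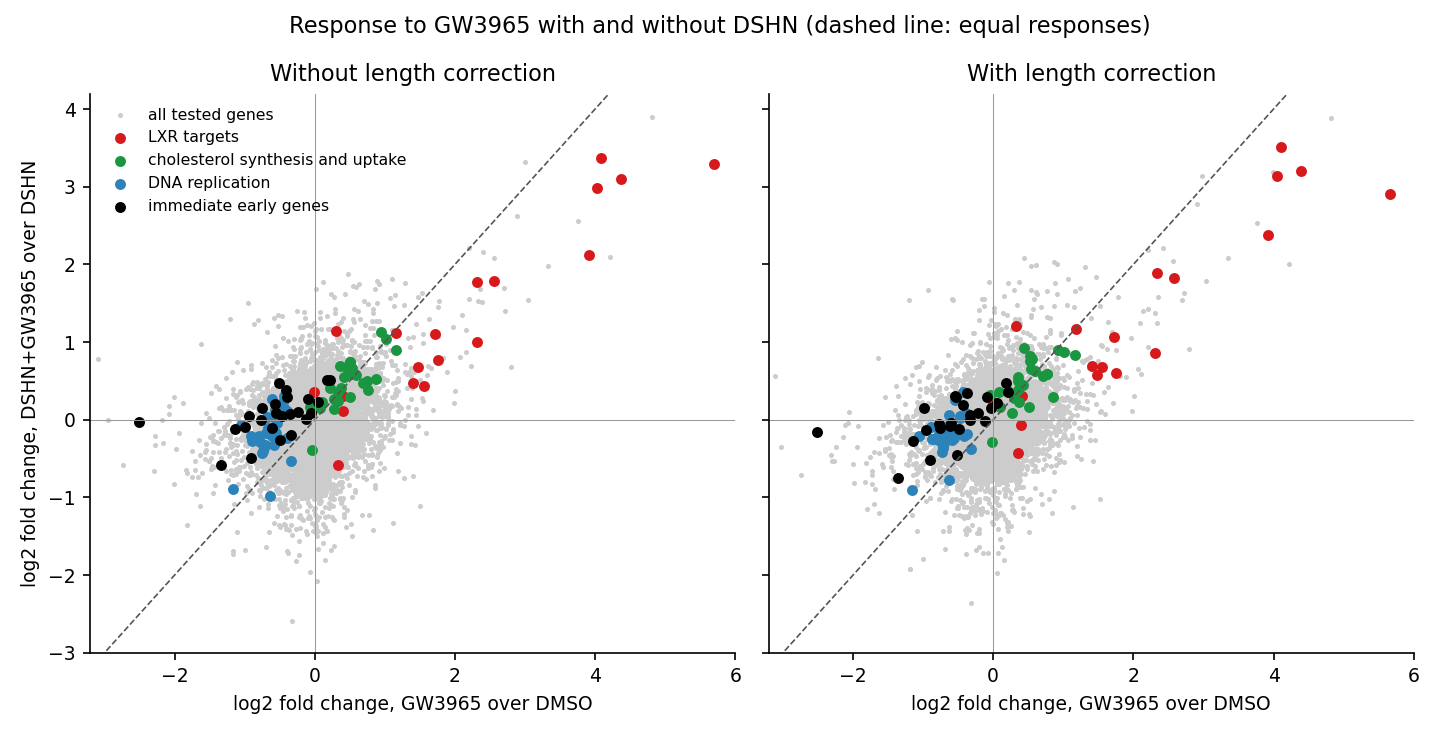
Log2 fold change of each of 13307 tested genes with GW3965 over DMSO (horizontal) against DSHN with GW3965 over DSHN (vertical), without (left) and with (right) the length correction, with members of 4 lists coloured and a dashed line where both responses are equal. Most LXR targets lie under the line at positive values, and most DNA replication and immediate early genes lie left of 0 on the horizontal axis and near 0 on the vertical axis.

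Cholesterol synthesis genes, by contrast with the exporters, showed no common shift, with 6 positive and 8 negative differences among 26 and a median of 0.02, 5 and 7 corrected. Their median rise was 0.49 with DSHN and 0.48 without. Insig1 had a difference of −0.27 ± 0.05 (SE, corrected −0.34) and Cyp51 of 0.23 (0.29).

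Genes that fell with GW3965 alone were often less changed with DSHN. Of all tested genes 23% were called lower with GW3965 over DMSO (23.3% corrected). All 30 DNA replication genes were lower with GW3965 over DMSO at a median of −0.63, and the difference was positive for 27 and negative for 2 (26 and 0 corrected), at a median of 0.52. Mitosis genes had medians of −0.26 with DSHN and −0.29 without it, with 9 positive and 8 negative differences among 26. Of 25 immediate early genes 17 were lower with GW3965 alone, and 19 had a positive difference and none a negative one (18 and 0 corrected). Fos, named after its values were seen, had −2.50 without DSHN and −0.03 with it. Inflammatory genes had 14 positive and 2 negative differences among 26 (12 and 2 corrected). Cxcl14 was lower by 0.95 with GW3965 alone and rose by 0.42 with DSHN, a difference of 1.37 ± 0.11 (SE, adjusted p = 4.77e-10, corrected 1.34). Mmp13, a collagenase gene, had −1.45 without DSHN and −0.20 with it (1.254, corrected 1.18), Ptgs2 −1.83 and −0.64 (1.19, corrected 1.248) and Zfp36 −0.51 and 0.48 (0.99, corrected 0.82).

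**Figure D5:**
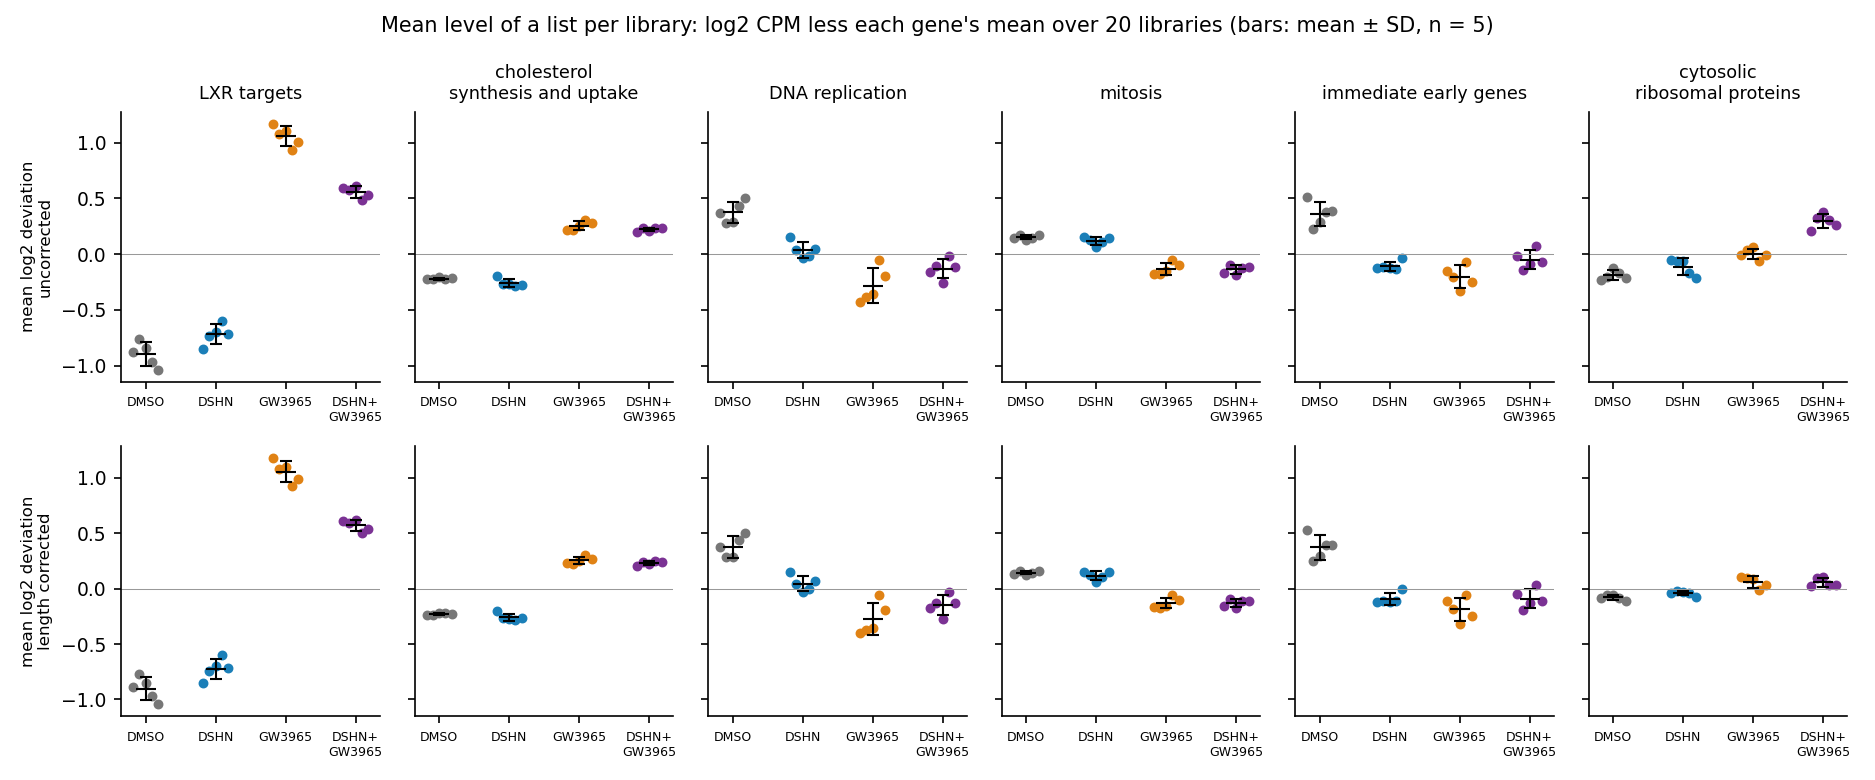
Mean level of 6 lists in each of 20 libraries (points), as log2 CPM after the mean of each gene in 20 libraries was taken off, without (top) and with (bottom) the length correction, with bars for the mean ± SD (n = 5) per group. For DNA replication the DSHN libraries lie between −0.03 and 0.15 and the DMSO libraries between 0.28 and 0.50, so the comparison over DSHN starts from a lower level than that over DMSO, and immediate early genes show the same order of these 2 groups.

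For these lists the starting levels differed. The mean deviation of immediate early genes was 0.23 to 0.51 in the DMSO libraries and −0.13 to −0.04 in the DSHN libraries, and it was −0.33 to −0.07 with GW3965 and −0.14 to 0.07 with both. Combination and DSHN libraries overlapped on this list, while GW3965 lay below DMSO without overlap. For LXR targets the DSHN libraries lay at −0.85 to −0.60 and the DMSO libraries at −1.03 to −0.76. Those groups overlapped by DSHN replicate 1 only, and the other DSHN libraries lay above every DMSO library. The combination at 0.48 to 0.61 lay below GW3965 alone at 0.94 to 1.17.

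The genes with the most negative differences included Lbp (4.22 without DSHN, 2.09 with it, difference −2.13 ± 0.25 SE), Gprin3 (1.27 and −0.75), Ogn, a matrix proteoglycan gene (0.86 and −0.84), Svep1 (0.53 and −1.49) and Col12a1. Col12a1 had 0.27 without DSHN (adjusted p = 0.0653) and −1.62 with it, a difference of −1.89 ± 0.17 (SE, adjusted p = 5.6e-09, corrected −1.62). Of the 8 tested stromal and endothelial markers, 2 were higher and 1 lower with GW3965 over DMSO, where their summed level was 2294 to 2887 CPM with DMSO and 2549 to 3336 CPM with GW3965. Their part in the differences of Ogn, Svep1 and Col12a1 was not tested.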

How the data were processed

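RNA of 20 macrophage cultures was sequenced as stranded poly(A) libraries, per the labels' protocols. The authors aligned reads with STAR to GRCm39, per the submitters' processing notes, and counted reads over exons per gene with featureCounts 2.0.0, per the file headers. Each deposited file holds raw counts and the summed exon length of each gene. The counting command names no strand option and none for reads that map to several places, so a gene and its antisense or overlapping partner cannot be told apart, and near-identical paralogs (ribosomal protein genes, Scd1 and Scd2) are uncertain. STAR's version and settings are not given in the sources used here.

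Of 46318 genes, 1569 without a name (0.474% of counts) were left out, and 13307 passed edgeR's filterByExpr. edgeR 4.0.16 (R 4.3.3) fitted quasi-likelihood models to all 20 libraries with a mean per treatment and TMM scaling, with Benjamini-Hochberg adjustment over all tested genes at 0.05. The fit of all 4 groups shares an estimate of the spread. Standard errors are the absolute log2 change over the square root of F. The length correction took log2 exon length through a natural spline (5 degrees of freedom), fitted it to each library's log2 CPM (prior count 2) less the gene's mean, and entered the fit as offsets. Differences between the responses are the contrast of the 2 GW3965 effects. For measures of whole libraries the test was an exact permutation, two-sided (scipy 1.17.1). Replicates of 20 pairs differed beyond counting noise (chi-square per degree of freedom 2.47 to 13.3), and none were identical. The deviations of same-numbered libraries correlated at over 0.1 in all 5 pairs of GW3965 with DMSO, but not in those of the combination with DSHN. The number was therefore also fitted as a block, and the values in the results are from the fit without it. The labels do not say what a number marks.

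Genes were named by rule: the 12 largest rises and falls of at least 5 CPM called with the same sign in both analyses and without overlap of libraries, all LXR targets, up to 3 members of each other list, the 6 most negative and 6 most positive differences, the 4 leading genes of opposite sign, and Nr0b2, Nr1h2 and Nr1h3. Other genes were named after their values were seen. Some genes that the rule chose are not reported here and were not replaced. The comparison, the members and the lists were chosen with earlier results of these data known. Alternatives were DESeq2 1.42.0, limma 3.58.1 voom, other scalings, filters and length corrections, the replicate number as a block, and each library left out in turn. On counts simulated for this comparison with a straight length trend over 12755 genes, the uncorrected test called 4006 of 12555 unchanged genes and recovered 43 of 50 genes changed 1.25-fold. With the correction it called 9 unchanged genes and recovered 49 of 50. The changed genes were drawn from well-counted genes only, and all genes were given the same spread. The recovery therefore does not carry over to genes with few counts. The simulated trend was the same in every combination library and of a kind that the correction removes. It therefore cannot show how well the correction suits the trend in these data.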

Additional observations from a re-analysis of the deposited data

Results flagged for a closer look

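In 12 of 218 groups of 5 libraries looked at, 1 library of a named gene stood apart from the other 4, with a gap to its nearest neighbour over 0.71 of the group's range, where chance gives about 1 in 20. Among lipid genes these were Scd1 in DSHN replicate 1 (11.2 CPM), Scd1 in combination replicate 4 (88.1 CPM), Abca1 in combination replicate 4 (1131 CPM), Lpl in DSHN replicate 1 (2992 CPM) and Slc25a20 in combination replicate 4 (40.8 CPM). The others were Cd38 in combination replicate 1 (28.8 CPM), Ago2 in combination replicate 1 (52.4 CPM), Anln in combination replicate 3 (103 CPM), Tapbp in DSHN replicate 3 (297 CPM), Ifi47 in combination replicate 1 (26.6 CPM), Gprin3 in DSHN replicate 4 (6.04 CPM) and Nptx1 in combination replicate 1 (3.19 CPM). Combination replicate 1 was the one that stood apart for Cd38, Ago2, Ifi47 and Nptx1.

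For 73 named genes the response to GW3965 with DSHN differed from that without it in a test of the difference, in log2 units of the first minus the second. Among LXR targets this held for Abca1 (-1.80), Abcg1 (-1.04), Apoe (-0.80), Pltp (-0.98), Mylip (-0.78), Lpcat3 (-0.61), Srebf1 (-0.55), Nr1h3 (0.36), Scd1 (-1.27), Scd2 (-0.72), Fasn (-1.13), Cd5l (-1.31), Lpl (0.84), Mertk (-0.92), Smpdl3a (-0.29) and Npc1 (-0.91). Other lipid and metabolic genes were Fads2 (-0.48), Acsl3 (-0.24), Insig1 (-0.27), Cyp51 (0.23), Plin2 (0.48), Lipa (-0.35), Fabp5 (-0.24), Fabp4 (0.62), Scarb1 (-0.19) and G6pdx (-0.48). Receptors and cofactors were Nr1h2 (-0.22), Ncor1 (-0.67), Ep300 (-0.84) and Nr2c2 (-1.27). Genes of immunity and of macrophage receptors were Cd38 (-1.20), Il18bp (-1.34), Il1a (-1.01), Lbp (-2.13), Cxcl14 (1.37), Ptgs2 (1.19), Mmp13 (1.254), Nfkb1 (-0.29), Tnip1 (-0.28), Irak3 (-0.36), Lgals9 (-0.68), Ifih1 (-0.74), Ddx58 (-0.44), Klra2 (1.35), Cd52 (0.52), Folr2 (0.58), Mrc1 (-0.92), Stab1 (-1.17) and Stab2 (-1.50). Signalling, stress and survival genes were Atf3 (0.30), Jund (0.34), Zfp36 (0.99), Atf4 (0.63), Bcl2l1 (0.60), Neat1 (1.39) and Snhg6 (0.58). Matrix genes were Col12a1 (-1.89), Svep1 (-2.02), Hspg2 (-1.57), Fn1 (-1.26), Ogn (-1.70) and Xylt1 (-0.94). The remaining ones were Cfap126 (-0.65), Elk4 (-1.54), Tram2 (-1.36), Usp9x (-1.48), Lnpep (-1.48), Pkd1 (-1.31), Snrnp200 (-1.43), Ago2 (-1.13), Bub1b (-0.30), Gprin3 (-2.02) and Nptx1 (1.63).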

How the results depend on the processing

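The number of genes called for the combination over DSHN was 7732 and ranged from 7219 to 7676 when 1 library was left out and from 6179 to 7794 under the other alternatives, and the difference in length slope of -0.147 ranged from -0.154 to -0.140 and from -0.157 to -0.147. For the difference between the responses the counts were 6334 to 6873 and 5877 to 6922, beside 6681. With total counts in place of TMM, GW3965 over DMSO gave 2267 higher and 4000 lower calls (36.2% higher, against 50.6%). Named genes kept their direction under every alternative but the length corrections, which turned 4 short transcripts. Under the spline correction these were Smpdl3a (-0.069), Atp5j2 (-0.098), Cd52 (-0.0915) and Rps18 (-0.0945), under the replicate block with the spline correction -0.0698, -0.098, -0.0915 and -0.0948 in that order, and under a straight line -0.032, -0.101, -0.0821 and -0.0779, where the removed trend itself is the change. Nr1h2 was called lower without DSHN replicate 3 (-0.12) or combination replicate 3 (-0.11), and the call of H2-DMa was lost as given above. The difference for Scarb1 was no longer called with total counts (-0.11), and that for Snhg6 under the straight-line correction and the block with the spline correction. Of 70 counts of list members, 25 moved by over 1.5 times under the spline correction, and of 700 with a library left out, 28 did. The replicate block gave 7794 calls (3830 higher and 3964 lower). Same-numbered libraries of the 2 groups had correlated deviations of -0.41 to 0.13 over 5 pairs, and 0 of 5 correlated best with their own number, so the numbers were not taken to pair these samples. For GW3965 and DMSO every same-numbered pair was over 0.1 (0.22 to 0.35), but numbers 1 and 4 correlated better with another number (0.35 and 0.52). Same-numbered libraries of the combination were also over 0.1 with GW3965 (0.13 to 0.49) and with DMSO (0.14 to 0.31). For GW3965 over DMSO and for the difference between the responses the block kept the number of calls within 1.5 times. Without the spline correction it changed the call of no named gene. Lower totals limit genes such as Nr0b2, Apoc1, Apoc2 and Apoc4, which had at most 15 counts in any of the 10 libraries.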
